A study of Arabidopsis thaliana with 9 samples.

Results

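The genes described here are 38 nuclear genes for the pigment-binding antenna and the protein subunits of the photosystems of Arabidopsis thaliana, out of 33302 features in the deposited expression table. They were taken by locus identifier, as a set chosen with earlier results of these data known. They comprise 16 antenna genes (12 LHCB and 4 LHCA), 12 genes for subunits of photosystem I and 10 for subunits of photosystem II. All 38 were found in the table, and all 38 had a mean of at least 1 FPKM, the minimum for testing. FPKM count fragments per kilobase of gene model and scale them to the size of the library, so levels can be compared between genes.

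Photosystem II oxidises water and photosystem I reduces ferredoxin, and both work in the thylakoid membrane of the chloroplast. Each photosystem joins reaction centre proteins coded in the plastid genome to subunits coded in the nucleus. Chlorophyll a/b-binding antenna proteins surround both, LHCB proteins mostly at photosystem II and LHCA proteins at photosystem I, and all of these are nuclear-coded. Their transcripts are known to be among the most abundant of green leaves and to respond to light, sugars and signals from the plastid.

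Leaf RNA came from 21-day-old plants of the Columbia-0 background, grown on soil at 23 °C with 16 h of light and 8 h of darkness. K36M plants (2 libraries) carried an inserted histone H3 gene, AT4G40040 (HTR5), with a missense mutation that puts methionine in place of lysine 36, and WT plants (2 libraries) carried the same gene unmutated. Both groups thus hold an insertion besides their own H3 genes, and libraries of the same group are biological duplicates by their labels. What promoter drove the inserted gene, whether the RNA plants were homozygous, how many lines were used and whether plants were pooled is not stated in the labels. By the series' design text, H3K36me3 was globally reduced in K36M plants, and RNA was compared to find transcripts that differ. The H3K36me3 ChIP samples were not analysed here, so the level of the mark in the RNA plants was not measured.

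HTR5 itself had 391 and 582 FPKM in K36M libraries, against 322 and 711 FPKM in WT libraries, a sum over the inserted and the plants' own copies. FPKM of a library summed to between 848446 and 1088301 in K36M and between 756076 and 1406621 in WT once AT2G01021, a short feature that held up to 34.6% of a library, was left out. Across the 17738 tested features WT replicate 1 stood apart, with Pearson r of 0.821 to 0.834 to the other libraries, which correlated with each other at 0.937 to 0.95. The 271 plastid and mitochondrial features were listed at 0 in every library, which leaves the plastid-coded reaction centre proteins without a value.

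No antenna or photosystem gene differed between K36M and WT beyond the spread of the libraries. None of the 38 was called (limma on log2(FPKM + 1), adjusted p = 1 for each), where 0.0395% of all tested features were called (0.0282% higher and 0.0113% lower). The lowest unadjusted limma p among the 38 was 0.45, so 0 of them were under 0.05, where 4.12% of all tested features were. Log2 fold changes of K36M over WT ran from -0.59 for PSBO2 to 0.50 for PSAN, with a median of -0.14 over the 38 genes and -0.05 over all tested features. They were below 0 for 29 of the 38, where 54.4% of all tested features were below 0. The precision was low, since the 95% interval of a member reached a median of 2.17 log2 units to either side of its estimate, against 1.16 over all tested features. The intervals together spanned -3.34 to 2.75, so changes of several fold in either direction were not detectable at this spread.

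**Figure D1:**
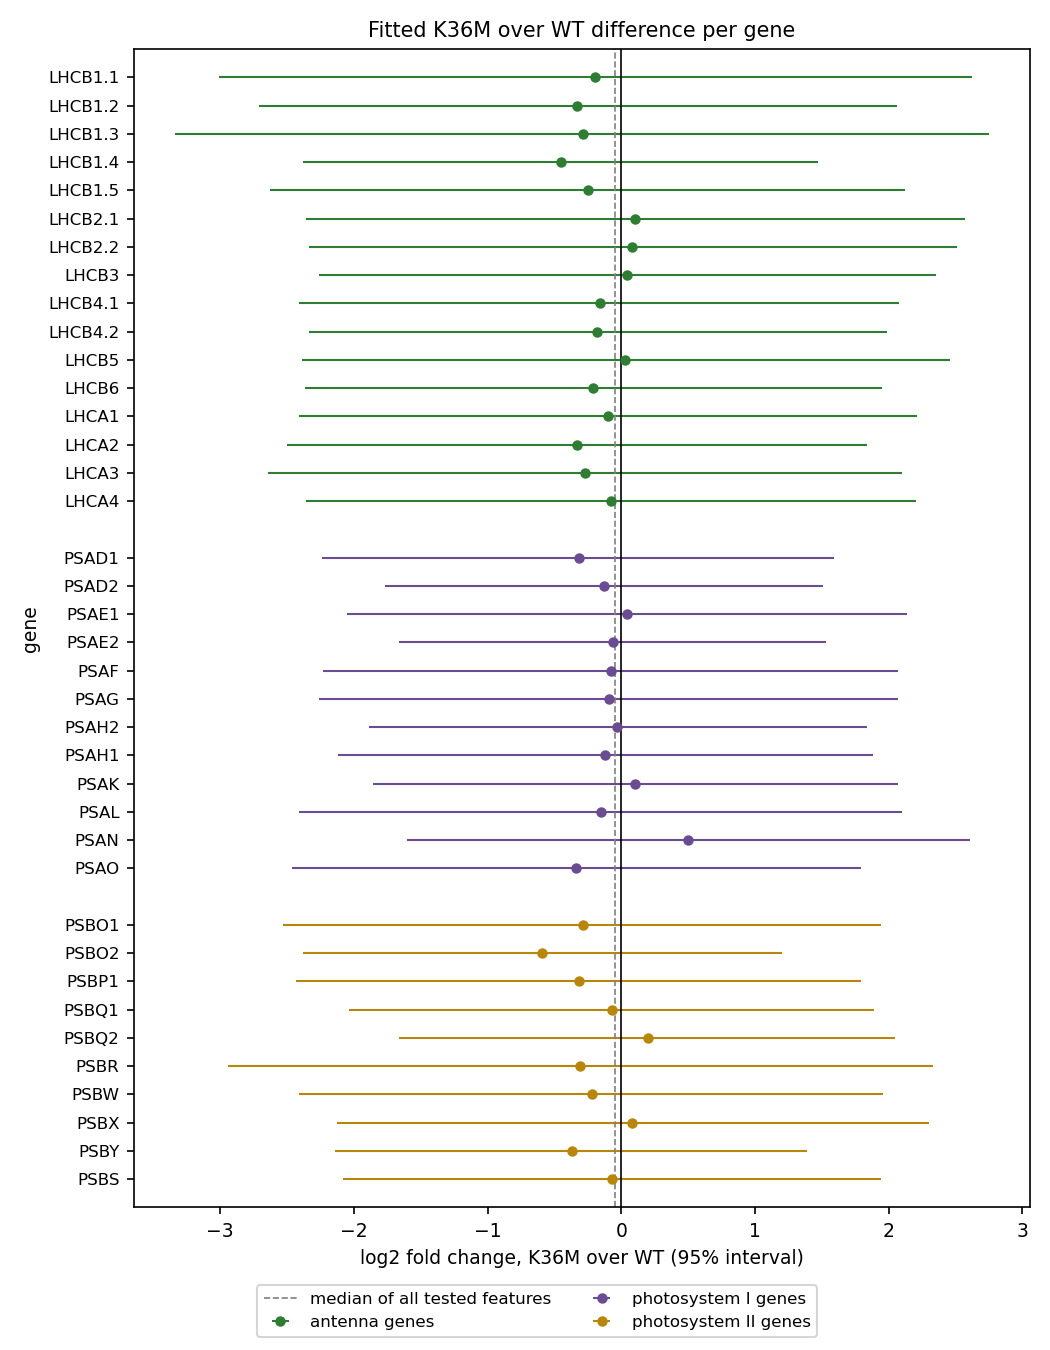
Log2 fold change of K36M over WT for each of the 38 genes, in blocks for antenna, photosystem I and photosystem II. Points are limma estimates with 95% intervals, and the dashed line is the median of all tested features (-0.05). Every interval crosses 0.

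The spread lay mostly within WT. WT replicate 2 exceeded WT replicate 1 for all 38 genes, where 53.1% of all tested features did so, and by more than 1 log2 unit for 22 of them, where 18.6% did. WT replicate 2 was the highest of the 4 libraries for 36 genes and WT replicate 1 the lowest for 30. Of 17738 tested features, those orders held for 5737 and 6149. Both held together for 28 of the 38 (17.9% of all tested features), so that both K36M values of these genes lay between the WT values (31.2% of all tested features had both K36M values between the WT values). In K36M, replicate 2 exceeded replicate 1 for 31 of the 38 (64.4% of all tested features). The libraries of K36M were closer, with a median absolute difference of 0.30 log2 units over the 38 genes, against 1.05 in WT. Over all tested features those medians were 0.34 in K36M and 0.70 in WT.

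**Figure D2:**
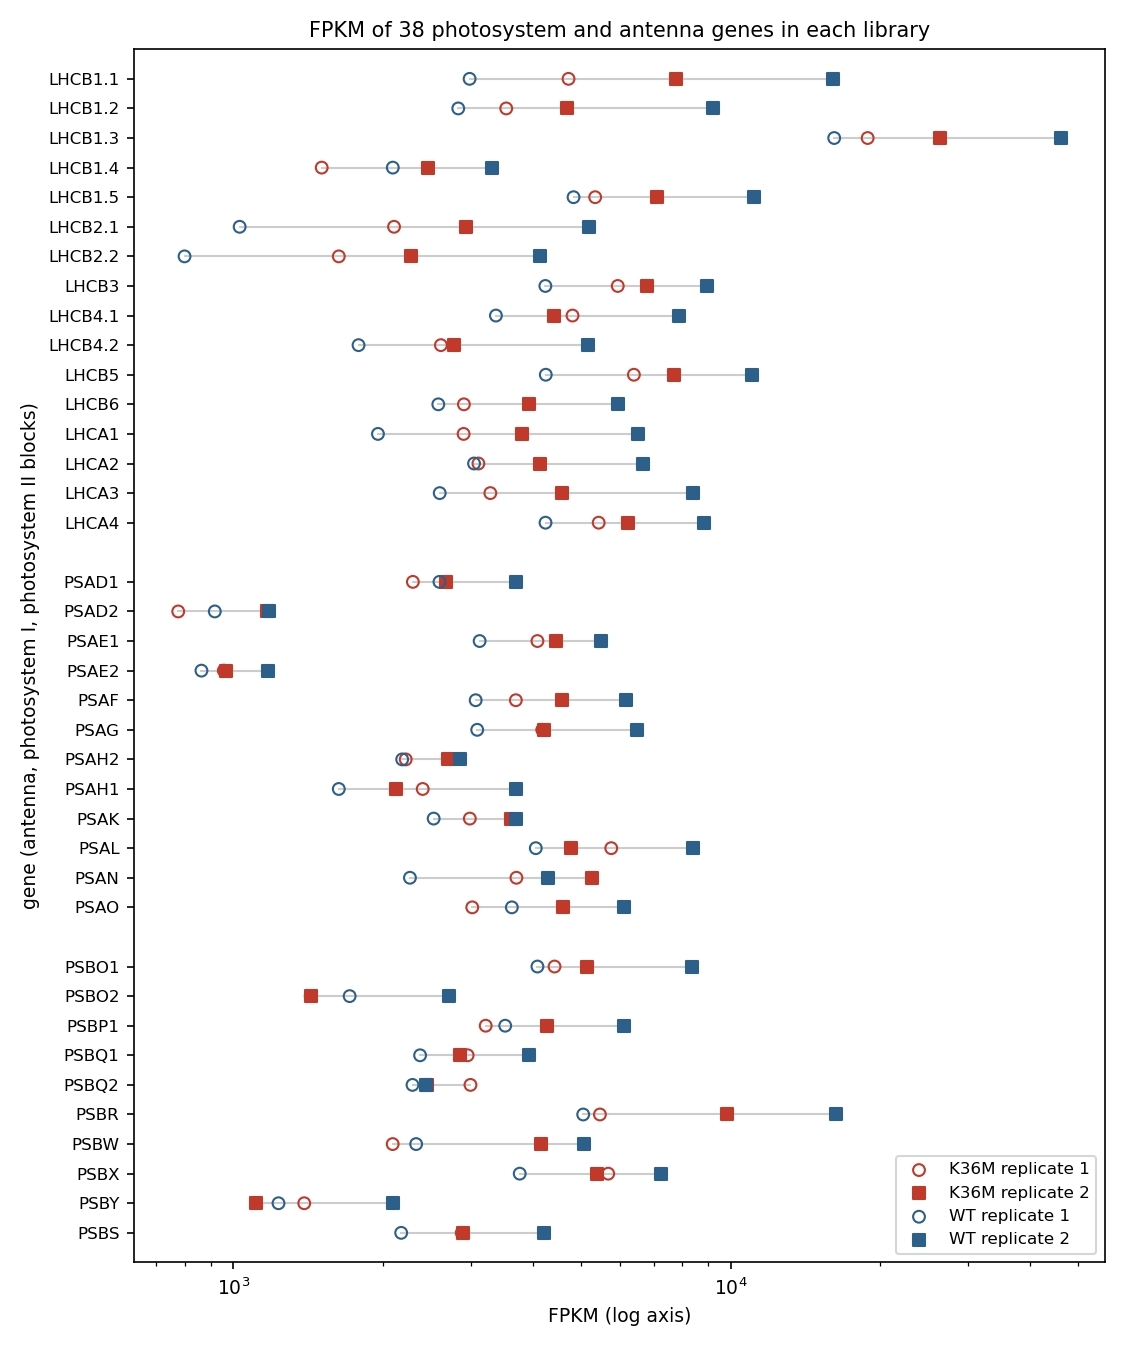
FPKM on a log axis for each of the 38 genes in each of the 4 libraries. Red symbols are K36M and blue symbols WT, open circles replicate 1 and filled squares replicate 2. The blue square is at the right end for 36 genes and the blue circle at the left end for 30, with the red symbols between them for 28. Of 17738 tested features, these orders held for 5737, 6149 and 3169.

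The direction of the difference depended on which WT library was used. With WT replicate 1 left out the median log2 fold change of the 38 was -0.72 and 36 were below 0, against a median of -0.12 and 57.9% below 0 over all tested features. With WT replicate 2 left out it was 0.42 and 3 were below 0, against a median of -0.00 and 50.1% below 0 over all tested features. Neither fit called a member (limma, lowest adjusted p of 0.59 and 0.23), where the fits called 0.0733% and 3.96% of all tested features. Between the replicate 1 libraries alone, K36M minus WT had a median of 0.32 and was above 0 for 31 genes, against a median of -0.09 and 45.0% above 0 over all tested features. Between the replicate 2 libraries alone, the median was -0.57 and 2 genes, PSAN and PSBQ2, were above 0, against a median of -0.03 and 47.0% above 0 over all tested features. With 1 library per group these differences have no test, and the sign of the median did not hold across the replicate numbers.

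The trimeric antenna of photosystem II, LHCII, is built from LHCB1, LHCB2 and LHCB3 proteins. LHCB1.3 (AT1G29930) was the most abundant member in every library, with 18864 and 26334 FPKM in K36M and 16158 and 46097 FPKM in WT, and it ranked 3 among all tested features by mean FPKM. Its K36M values lay between the WT values, and K36M differed from WT by -0.29 ± 1.25 on the log2 scale (SE; limma adjusted p = 1). LHCB1.1 (AT1G29920) had 4722 and 7755 FPKM in K36M and 2987 and 16064 FPKM in WT, the widest fold range between WT libraries of any member at 5.38. LHCB1.5 (AT2G34420) had 5342 and 7110 FPKM in K36M and 4833 and 11155 FPKM in WT. LHCB1.2 (AT1G29910) showed the same order of libraries, with 3539 and 4699 FPKM in K36M and 2834 and 9217 FPKM in WT. The exception in this family was LHCB1.4 (AT2G34430), whose lowest value was in K36M. It had 1506 and 2459 FPKM in K36M and 2093 and 3309 FPKM in WT.

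LHCB2 proteins, like LHCB1 proteins, are phosphorylated in state transitions, which shift antenna between the photosystems. LHCB2.1 (AT2G05100) had 2105 and 2938 FPKM in K36M and 1030 and 5190 FPKM in WT. LHCB2.2 (AT2G05070) had 1630 and 2274 FPKM in K36M and 798 and 4134 FPKM in WT. Both genes ran in parallel over the libraries, with replicate 2 above replicate 1 by 0.48 and 0.48 log2 units in K36M and by 2.33 and 2.37 in WT. Their K36M libraries lay between distant WT libraries, with log2 fold changes of 0.10 ± 1.01 and 0.08 ± 1.00 (SE; limma adjusted p = 1 each). LHCB3 (AT5G54270), found in the moderately bound trimers of photosystem II, varied less, with 5931 and 6778 FPKM in K36M and 4242 and 8946 FPKM in WT.

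The minor antenna proteins CP29, CP26 and CP24, coded by LHCB4, LHCB5 and LHCB6, link the trimers to the photosystem II core as monomers. LHCB5 (AT4G10340), the most abundant of them, had 6391 and 7679 FPKM in K36M and 4250 and 11025 FPKM in WT, for a K36M over WT difference of 0.03 ± 0.99 log2 units (SE; limma adjusted p = 1). LHCB4.1 (AT5G01530) had 4810 and 4410 FPKM in K36M and 3374 and 7865 FPKM in WT, and LHCB4.2 (AT3G08940) 2615 and 2774 FPKM in K36M and 1786 and 5177 FPKM in WT. LHCB6 (AT1G15820) had 2909 and 3930 FPKM in K36M and 2584 and 5948 FPKM in WT. For all 4 genes both K36M values lay between the WT values.

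The same held for the 4 LHCA genes, whose proteins form the belt of antenna on one side of photosystem I. LHCA1 (AT3G54890) had 2905 and 3807 FPKM in K36M and 1954 and 6524 FPKM in WT. LHCA3 (AT1G61520) was close to it in pattern, with 3288 and 4588 FPKM in K36M and 2601 and 8410 FPKM in WT. LHCA4 (AT3G47470), the most abundant of the 4, varied least between the WT libraries, with 5430 and 6205 FPKM in K36M and 4245 and 8831 FPKM in WT. LHCA2 (AT3G61470) had 3111 FPKM in K36M replicate 1 and 3049 FPKM in WT replicate 1, nearly level, with 4140 FPKM in K36M replicate 2 and 6651 FPKM in WT replicate 2. The log2 fold changes of the 4 ran from -0.33 to -0.08.

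Photosystem I subunit genes varied less than the antenna between the WT libraries, with a median difference of 0.78 log2 units against 1.44. Log2 fold changes over the 12 had a median of -0.09 and ran from -0.34 for PSAO to 0.50 for PSAN, none was called, and none had K36M values beyond both WT values. PSAN (AT5G64040), a lumenal subunit near the plastocyanin docking side, was the one photosystem I gene highest in a K36M library. It had 3710 and 5269 FPKM in K36M and 2266 and 4287 FPKM in WT, 0.50 ± 0.86 log2 units higher in K36M by limma (SE; adjusted p = 1). K36M replicate 1 still lay below WT replicate 2, so the groups overlapped. The log2 fold change of PSAN was 0.04 with WT replicate 1 left out and 0.96 with WT replicate 2 left out.

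PSAD and PSAE proteins form the stromal ridge where ferredoxin docks. PSAD1 (AT4G02770) had 2297 and 2674 FPKM in K36M and 2598 and 3710 FPKM in WT, and PSAD2 (AT1G03130) 775 and 1170 FPKM in K36M and 918 and 1180 FPKM in WT. In both genes K36M replicate 1 was the lowest library. PSAE1 (AT4G28750) had 4089 and 4466 FPKM in K36M and 3129 and 5486 FPKM in WT. PSAE2 (AT2G20260), the least abundant member by mean, had 957 and 969 FPKM in K36M and 863 and 1172 FPKM in WT. PSAF (AT1G31330), which takes part in plastocyanin docking, had 3700 and 4592 FPKM in K36M and 3072 and 6154 FPKM in WT.

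PSAG and PSAK are related membrane subunits on the periphery of photosystem I, and PSAH, PSAL and PSAO lie on the side where LHCII docks in state transitions. PSAL (AT4G12800), the most abundant photosystem I gene, had 5755 and 4771 FPKM in K36M and 4058 and 8384 FPKM in WT. PSAG (AT1G55670) had 4181 and 4214 FPKM in K36M and 3094 and 6484 FPKM in WT. PSAK (AT1G30380), by contrast, ranged 1.46-fold over the 4 libraries, with 2990 and 3616 FPKM in K36M and 2529 and 3701 FPKM in WT. PSAH2 (AT1G52230) had the narrowest range of all members, 0.38 log2 units between WT replicate 2 and WT replicate 1, with 2222 and 2706 FPKM in K36M and 2186 and 2852 FPKM in WT. Its paralog PSAH1 (AT3G16140) ranged 2.27-fold, with 2404 and 2122 FPKM in K36M and 1630 and 3707 FPKM in WT. PSAO (AT1G08380) was lowest in K36M replicate 1, with 3024 and 4596 FPKM in K36M and 3632 and 6091 FPKM in WT.

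The oxygen-evolving complex, the lumenal cap that stabilises the manganese cluster of photosystem II, held both genes whose groups did not overlap. PSBO2 (AT3G50820), one of the genes for the manganese-stabilising protein, had 1431 and 1434 FPKM in K36M and 1714 and 2710 FPKM in WT. Both K36M values were below both WT values, an order shown by 19.3% of all tested features. The group means were 1433 ± 2.45 FPKM in K36M and 2212 ± 704 FPKM in WT (SD, n = 2 each), a difference of -0.59 ± 0.73 log2 units (SE; limma adjusted p = 1). With WT replicate 1 left out the difference was -0.92, and with WT replicate 2 left out -0.26. PSBQ2 (AT4G05180), for an extrinsic protein that helps retain calcium and chloride, had 2999 and 2455 FPKM in K36M and 2293 and 2443 FPKM in WT. Both K36M values were above both WT values, as in 12.1% of all tested features, but K36M replicate 2 and WT replicate 2 differed by a log2 value of 0.01. Its log2 fold change was 0.20 ± 0.76 (SE; limma adjusted p = 1).

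The other genes of that complex overlapped between groups. PSBO1 (AT5G66570), the more abundant gene for the manganese-stabilising protein, had 4426 and 5138 FPKM in K36M and 4089 and 8361 FPKM in WT. PSBP1 (AT1G06680), for the largest of the remaining extrinsic proteins, had 3218 and 4278 FPKM in K36M and 3522 and 6108 FPKM in WT, with K36M replicate 1 lowest. PSBQ1 (AT4G21280) had 2960 and 2856 FPKM in K36M and 2375 and 3937 FPKM in WT.

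Among the other photosystem II genes PSBR (AT1G79040), for a small protein needed for stable binding of PSBP, was the second most abundant member. It had 5461 and 9846 FPKM in K36M and 5054 and 16257 FPKM in WT, a 3.22-fold range between the WT libraries that no other subunit gene reached. PSBW (AT2G30570), a small membrane subunit, also differed within K36M, with 2092 and 4159 FPKM in K36M and 2332 and 5080 FPKM in WT. In the small subunits PSBX (AT2G06520) and PSBY (AT1G67740), K36M replicate 2 was instead below K36M replicate 1. PSBX had 5675 and 5386 FPKM in K36M and 3767 and 7250 FPKM in WT, and PSBY had 1389 and 1110 FPKM in K36M and 1233 and 2098 FPKM in WT. PSBS (AT1G44575), the sensor of lumen acidity in the thermal dissipation of excess light, had 2880 and 2899 FPKM in K36M and 2176 and 4215 FPKM in WT. Its log2 fold change was -0.07 ± 0.82 (SE; limma adjusted p = 1). PSBS was nearly level within K36M and differed 1.94-fold within WT.

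Set against each other, antenna and subunit genes did not differ in their K36M over WT difference by more than the libraries did. The median log2 fold change was -0.19 over the 16 antenna genes and -0.11 over the 22 subunit genes, a difference of -0.08. With WT replicate 1 left out that difference was -0.34, and with WT replicate 2 left out it was 0.24. The summed FPKM of antenna over subunit genes was 1.09 and 1.21 in K36M and 1.00 and 1.47 in WT. This ratio does not depend on the scaling of a library, and the K36M values lay between the WT values. The ratio of LHCB to photosystem II subunits was 1.86 and 2.00 in K36M and 1.64 and 2.29 in WT, and that of LHCA to photosystem I subunits 0.408 and 0.455 in K36M and 0.395 and 0.572 in WT. Both followed the order WT replicate 1, K36M replicate 1, K36M replicate 2, WT replicate 2.

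Antenna genes spread more widely than subunit genes within WT. In K36M the median log2 difference of replicate 2 minus replicate 1 was 0.41 for the antenna, 0.25 for photosystem I and 0.01 for photosystem II genes. The photosystem II differences had both signs, with 6 of 10 above 0. Without sign, the K36M medians were 0.41 for the antenna, 0.27 for photosystem I and 0.25 for photosystem II genes. In WT it was 1.44 for the antenna, 0.78 for photosystem I and 0.87 for photosystem II genes. The WT difference exceeded 1 log2 unit for 15 of 16 antenna genes and 7 of 22 subunit genes. These are differences between single libraries and have no test.

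**Figure D3:**
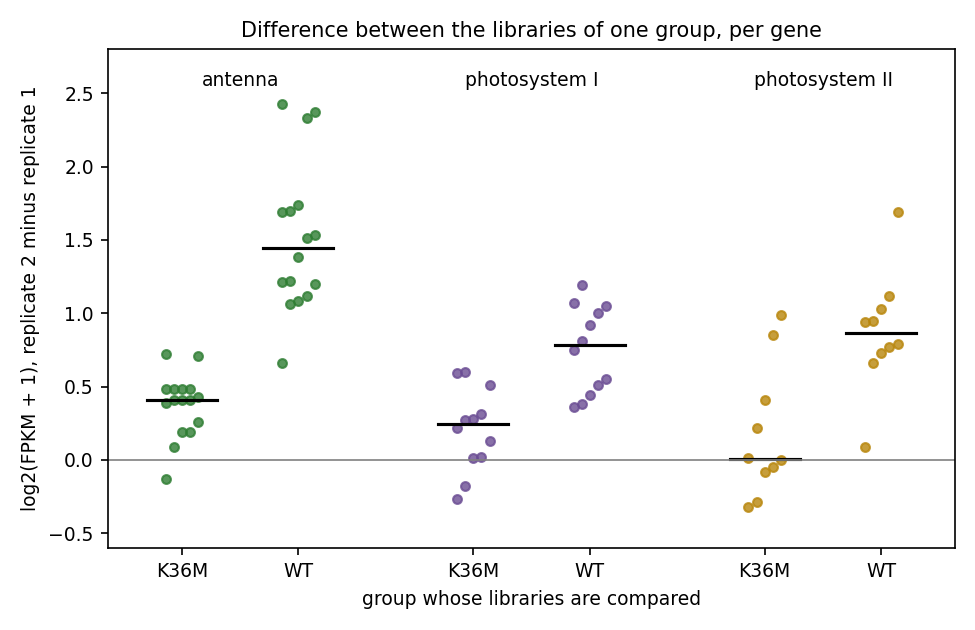
Difference in log2(FPKM + 1) between replicate 2 and replicate 1 of the same group, 1 point per gene, with the median as a black bar. The antenna medians are 0.41 in K36M and 1.44 in WT, against 0.25 and 0.78 for photosystem I and 0.01 and 0.87 for photosystem II.

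As a share of a library's FPKM sum without AT2G01021, the 38 genes took 16.9% and 16.4% in K36M and 15.5% and 19.6% in WT. The subunit genes held a nearly level share of 8.09% and 7.42% in K36M and 7.74% and 7.94% in WT. The antenna genes took 8.85% and 8.99% in K36M and 7.78% and 11.7% in WT. The higher share of the 38 genes in WT replicate 2 lay mostly in the antenna. Set against RBCS1A, a gene for the small subunit of Rubisco, the summed FPKM of the 38 genes was 5.57 and 5.92 times that of RBCS1A in K36M and 5.57 and 5.63 times in WT. That ratio moved far less than the levels themselves, which summed to 143735 and 178607 FPKM in K36M and 117349 and 276210 FPKM in WT. In WT its parts moved in opposite directions. Antenna over RBCS1A was 2.91 and 3.24 in K36M and 2.79 and 3.35 in WT. Subunit genes over RBCS1A were 2.66 and 2.67 in K36M and 2.78 and 2.28 in WT. The steadiness also depends on the reference gene. RCA, another mesophyll gene, had 6751 and 7075 FPKM in K36M and 7436 and 14457 FPKM in WT.

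**Figure D4:**
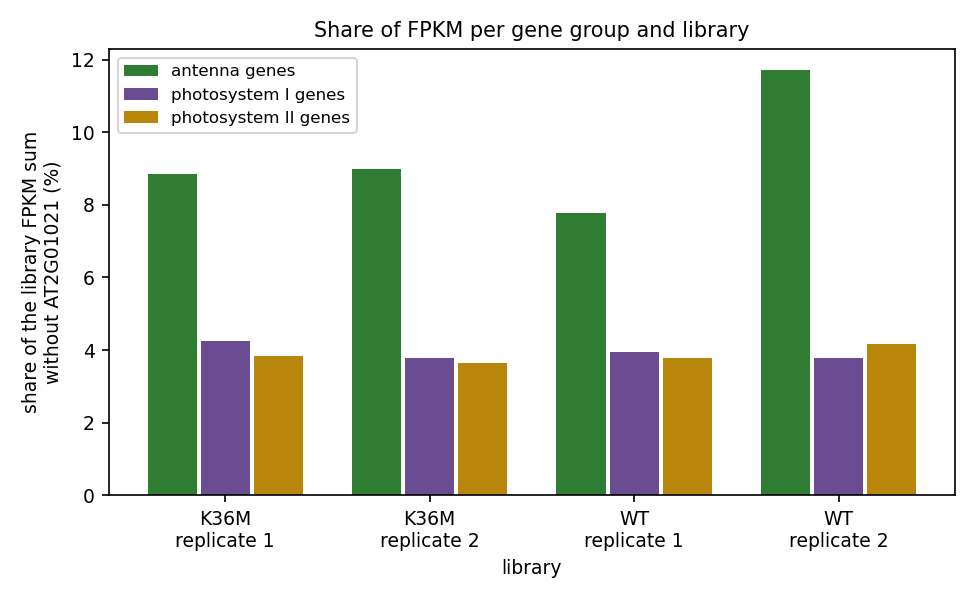
Share of each library's FPKM sum, AT2G01021 left out, taken by antenna, photosystem I and photosystem II genes. Antenna genes take 8.85% and 8.99% in K36M and 7.78% and 11.7% in WT, while each subunit group stays between 3.64% and 4.26%.

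Several members are paralogs, and their shares within a family do not depend on library scaling. PSBO1 made up 75.6% and 78.2% of PSBO FPKM in K36M and 70.5% and 75.5% in WT, the one family of 8 in which the shares did not overlap between groups. The nearest values, 75.6% in K36M replicate 1 and 75.5% in WT replicate 2, almost met. PSBQ2 made up 50.3% and 46.2% of PSBQ FPKM in K36M and 49.1% and 38.3% in WT. PSAH1 made up 52.0% and 44.0% of PSAH FPKM in K36M and 42.7% and 56.5% in WT, so the more abundant paralog changed from library to library in both groups. PSAD1 made up 74.8% and 69.6% of PSAD in K36M and 73.9% and 75.9% in WT, and PSAE1 81.0% and 82.2% of PSAE in K36M and 78.4% and 82.4% in WT. LHCB4.1 made up 64.8% and 61.4% of LHCB4.1 and LHCB4.2 together in K36M and 65.4% and 60.3% in WT.

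Within LHCB1, LHCB1.3 held a steady 55.5% and 54.5% in K36M and 55.9% and 53.7% in WT. LHCB1.1 took 13.9% and 16.0% in K36M and 10.3% and 18.7% in WT, while LHCB1.4 took 4.43% and 5.09% in K36M and 7.24% and 3.86% in WT. LHCB2.1 took 56.3% and 56.4% of the LHCB2 genes in K36M and 56.4% and 55.7% in WT. LHCB1.1, LHCB1.2 and LHCB1.3 are direct neighbours in the RefSeq annotation of TAIR10.1, as are LHCB1.4 and LHCB1.5, and the LHCB1 and LHCB2 genes are known as near-identical copies. How reads shared by copies were counted is not stated in the labels, so the split within these families is uncertain. Summed before the test, LHCB1 had a log2 fold change of -0.30 and LHCB2 of 0.10 (limma adjusted p = 1 each).

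None of 47 other nuclear genes, listed for the light reactions, their assembly or their regulation, was called (limma, adjusted p = 1 each). K36M values lay above both WT values for 5 and below both for 3, where 12.1% and 19.3% of all tested features did. Over 14 genes of electron transport and ATP synthase the median log2 fold change was -0.02. ATPC1, the gamma subunit of the plastid ATP synthase, was the one of them whose groups did not overlap, with 800 and 787 FPKM in K36M and 1000 and 853 FPKM in WT. Over 10 rare or stress-related antenna relatives the median was 0.20, and OHP1, a one-helix protein used in photosystem assembly, had 534 and 683 FPKM in K36M and 319 and 520 FPKM in WT. Over 10 genes grouped under assembly, import and phosphorylation the median was -0.33. TAP38, the phosphatase that dephosphorylates LHCII, had 61.2 and 72.1 FPKM in K36M and 109 and 91.5 FPKM in WT, with no overlap.

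Among 13 regulators of photosynthesis genes the median was -0.26. SIG5, a nuclear-coded sigma factor for plastid transcription, had 60.1 and 66.9 FPKM in K36M and 26.4 and 31.4 FPKM in WT, 1.11 ± 0.42 log2 units higher in K36M (SE; limma unadjusted p = 0.039, adjusted p = 1). SIG1, another sigma factor, had 76.9 and 102 FPKM in K36M and 74.1 and 41.6 FPKM in WT. CGA1, a GATA factor of chloroplast development, had 21.0 and 17.6 FPKM in K36M and 8.36 and 16.4 FPKM in WT. GUN1, a plastid protein of retrograde signalling, had 46.8 and 39.7 FPKM in K36M and 73.2 and 68.2 FPKM in WT. PIF3, a phytochrome-interacting factor, had 6.11 and 6.19 FPKM in K36M and 3.87 and 5.36 FPKM in WT. In these 5 of 13 genes, 4 above both WT values and 1 below both, the groups did not overlap (12.1% and 19.3% of all tested features), and in none did the difference pass the test.

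GLK1 and GLK2, transcription factors known to activate antenna and photosystem genes, were chosen after their values were seen. GLK1 had 146 and 119 FPKM in K36M and 113 and 376 FPKM in WT, and GLK2 60.7 and 95.5 FPKM in K36M and 47.2 and 236 FPKM in WT. Like most antenna genes, both were highest in WT replicate 2 and lowest in WT replicate 1. That order held for 3 of the 13 regulators and for 17.9% of all tested features. Other regulators, such as GNC, SIG1 and SIG2, were lower in WT replicate 2 than in WT replicate 1. ELIP1 and ELIP2, light-stress relatives of the antenna proteins and also chosen after their values were seen, stood apart in WT replicate 1 alone. ELIP1 had 520 and 342 FPKM in K36M and 19.3 and 457 FPKM in WT, and ELIP2 227 and 209 FPKM in K36M and 3.24 and 213 FPKM in WT. Both were called as higher in K36M when WT replicate 2 was left out (limma, adjusted p = 0.030 and 0.019), in a fit that called 1.08% of all tested features as higher. Neither was called with WT replicate 1 left out (limma, adjusted p = 0.94 and 0.98), a fit that called 0.00564% as higher.

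Markers of leaf mesophyll were abundant in every library. The 4 root markers summed to 37.2 and 60.9 FPKM in K36M and 8.93 and 62.4 FPKM in WT. Most of that sum was PYK10, with 29.6 and 52.4 FPKM in K36M and 0.231 and 49.8 FPKM in WT, and SHR, with 7.53 and 8.45 FPKM in K36M and 8.70 and 12.6 FPKM in WT. EXPA7 was listed at 0 in all 4 libraries, and PIN2 was at 0.109 FPKM or less. The 4 mesophyll markers, RBCS1A, RBCS3B, RCA and CA1, summed to 43449 and 49692 FPKM in K36M and 38212 and 85314 FPKM in WT, the same order of libraries as most members. RCA and CA1 were below both WT values in both K36M libraries, an order shown by 19.3% of all tested features. The 3 epidermis markers summed to 446 and 371 FPKM in K36M and 113 and 600 FPKM in WT. PDF1 carried most of that range, with 313 and 213 FPKM in K36M and 4.81 and 404 FPKM in WT, while FDH had 116 and 138 FPKM in K36M and 95 and 176 FPKM in WT, and ATML1 17.6 and 19.4 FPKM in K36M and 13.5 and 20.1 FPKM in WT. The 3 meristem markers summed to 15.2 and 12.3 FPKM in K36M and 0.265 and 12.4 FPKM in WT. These marker sums thus differed between the WT libraries. The 4 flower markers summed to 8.57 and 15.8 FPKM in K36M and 1.48 and 1.49 FPKM in WT, with AP3 listed at 0 in both WT libraries. AP3, PI and SEP3 were above both WT values in K36M, as in 12.1% of all tested features. AG was not, with 0.794 and 0.86 FPKM in K36M and 1.04 and 0.177 FPKM in WT. The 4 immune genes PR1, PR2, PR5 and PCC1 summed to 70.0 and 46.8 FPKM in K36M and 3569 and 647 FPKM in WT. In K36M all 4 were below both WT values (19.3% of all tested features). None of the 4 was called (limma, lowest adjusted p of 0.31, for PR1). The 3 guard cell markers summed to 16.0 and 14.2 FPKM in K36M and 31.2 and 11.3 FPKM in WT, and the 3 vasculature markers to 117 and 104 FPKM in K36M and 133 FPKM in each WT library. The part of these differences in the levels of antenna and photosystem genes was not tested, and in bulk leaf RNA fewer cells of a type and less RNA per cell cannot be told apart.

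Gene span was also compared with the spread within WT, since WT replicate 1 had relatively more signal from long genes. Over 17473 tested features with a span in RefSeq TAIR10.1, Spearman's rho between span and WT replicate 2 minus WT replicate 1 was -0.35, a description across genes that share libraries. The 33 members spanning 1 to 2 kb had a median WT difference of 1.08 log2 units, against 0.46 over all 4998 features of that span. The 4 shorter members had a median of 0.66, against 0.74 over the 1073 features of their span class, and the 1 longer member had 0.95, against -0.04 over its class. With the trend on span removed, the median log2 fold change of the 38 was -0.30 with 33 below 0. Over all features in that fit the median was 0.02. In K36M, 12 of the 38 then lay below both WT values (16.1% of features) and 1, PSAN, above both (15.3%). PSBO2 was among the 12.

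Rescaling the libraries gave other counts. With library sums set equal, 6 of the 38 lay below both WT values (9.05% of features) and 1 above both (17.3%). With median-of-ratios factors 2 lay below both (17.0%) and 0 above both (14.6%). After quantile normalization 3 lay below both (18.2%) and 5 above both (16.0%). PSBO2 was below both WT values under each of them, while PSBQ2 was above both in the deposited values and under none. No member was called after any of these steps (limma, lowest adjusted p of 0.94).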

How the data were processed

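The authors deposited FPKM per feature, condition and replicate number in 1 table with no header, the unit being taken from the labels. Libraries were made with a stranded mRNA kit per the labels' protocols. TAIR10, Bowtie2 and bedtools are named without roles in the submitters' processing notes. The program that made the FPKM is not given in the sources used here. Depth per library is unknown, so precision is given by the spread between 2 libraries per group. Rows were matched to samples through names quoted in the labels.

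Of 33302 features, 17738 reached a mean of 1 FPKM and were tested on log2(FPKM + 1), where changes of low genes come out too small, with limma 3.58.1 in R 4.3.3 (mean-variance trend, two-sided, Benjamini-Hochberg over all tested features, threshold 0.05). FPKM were not rescaled. The fit was first tested on simulated data. Summaries used pandas 2.3.3 under Python 3.11.15. Alternatives were other pseudocounts, filters, scalings and limma settings, removal of the span trend by loess, a replicate block, each library left out and near-identical copies summed.

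Members and lists were chosen with earlier results of these data known. All 38 members are named, and of each list of other genes those whose groups did not overlap. The planned limit was 4 per list by size of change, and PIF3 was added beyond it among the regulators. Names came from RefSeq TAIR10.1, which held all 38 members, with LHCB1.1 to LHCB1.5 and PSBS from its synonyms. No sequences or coordinates are shown.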

Additional observations from a re-analysis of the deposited data

How the results depend on the processing

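No member was called under any alternative run. All 38 log2 fold changes kept their sign with other pseudocounts, filters and limma settings and with the replicate block. Those settings hardly alter the estimate of genes this abundant, so they cannot show that a sign is stable. Among settings that can alter it, quantile normalization reversed 10 of the 38 signs and leaving out WT replicate 2 reversed 26. With 2 libraries per group, depth unknown and WT replicate 1 standing apart, effects of several fold were not detectable, and a 0 count of calls does not show equal levels. In the test over all features 7 were called, 12 at an adjusted p under 0.1, and 0 under each of 5 settings. Those were a pseudocount of 10 (limma, 653 features at an unadjusted p under 0.05), no filter (1175), the replicate block (794) and the fits without K36M replicate 1 (216) or without K36M replicate 2 (151). Leaving out WT replicate 1 gave 13 calls, and leaving out WT replicate 2 gave 702. Removal of the span trend with the replicate block gave 28 calls, no member among them. The labels do not tie the replicate numbers to a shared batch, and with 2 pairs the correlation of their deviations was 0.13 over 17738 features, and the replicate block changed no member's call. A lone library left in a group was assumed to vary like the other group.

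Members with both K36M values below both WT values numbered 1 as deposited (19.3% of all tested features). They numbered 6 with scaling by library sum (9.05%), 2 by median of ratios (17.0%) and 3 after quantile normalization (18.2%). With the span trend removed there were 12 (16.1%), also with the replicate block. Those with both above numbered 1 as deposited (12.1%), 0 by median of ratios (14.6%) and 5 after quantile normalization (16.0%). Leaving out 1 library at a time moved the median log2 fold change from -0.47 to 0.37 for photosystem I genes, from -0.74 to 0.27 for photosystem II genes and from -0.92 to 0.55 for antenna genes, with the low end where WT replicate 1 was left out and the high end where WT replicate 2 was. The cause was not tested. The signs that changed, none of a called gene, were as follows. Scaling by library sum gave 0.03 for LHCA4, 0.04 for PSAE2, 0.02 for PSAF, 0.01 for PSAG, 0.08 for PSAH2, 0.03 for PSBQ1 and 0.03 for PSBS, and median of ratios 0.02 for PSAH2. Quantile normalization gave 0.05 for LHCB4.1, 0.05 for LHCB4.2, 0.06 for LHCA1, 0.11 for PSAF, 0.07 for PSAG, 0.15 for PSAH2, 0.04 for PSAH1, 0.09 for PSAL, 0.11 for PSBQ1 and 0.14 for PSBS. Removal of the span trend, with or without the replicate block, gave -0.08 for LHCB2.2, -0.07 for LHCB3, -0.10 for PSAE1, -0.12 for PSAK, -0.25 for PSBX and 0.08 for PSBS. Leaving out 1 library at a time gave ranges of -1.41 to 1.02 for LHCB1.1, -1.18 to 0.52 for LHCB1.2, -1.05 to 0.46 for LHCB1.3, -0.86 to 0.35 for LHCB1.5, -1.06 to 1.27 for LHCB2.1, -1.10 to 1.27 for LHCB2.2, -0.50 to 0.58 for LHCB3, -0.77 to 0.45 for LHCB4.1, -0.94 to 0.59 for LHCB4.2, -0.65 to 0.72 for LHCB5, -0.81 to 0.39 for LHCB6, -0.97 to 0.77 for LHCA1, -0.89 to 0.23 for LHCA2, -1.11 to 0.58 for LHCA3, -0.61 to 0.45 for LHCA4, -0.43 to 0.17 for PSAD2, -0.36 to 0.45 for PSAE1, -0.28 to 0.16 for PSAE2, -0.58 to 0.42 for PSAF, -0.63 to 0.44 for PSAG, -0.22 to 0.17 for PSAH2, -0.71 to 0.47 for PSAH1, -0.17 to 0.38 for PSAK, -0.68 to 0.37 for PSAL, -0.71 to 0.04 for PSAO, -0.81 to 0.22 for PSBO1, -0.72 to 0.08 for PSBP1, -0.44 to 0.29 for PSBQ1, -1.15 to 0.54 for PSBR, -0.78 to 0.34 for PSBW, -0.39 to 0.55 for PSBX, -0.76 to 0.01 for PSBY and -0.54 to 0.41 for PSBS.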
